A study of Mus musculus with 12 samples.

Results

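Ribosomal protein genes encode the protein parts of the small and large ribosomal subunits and of the stalk that recruits translation factors. Many of them carry small nucleolar RNAs (snoRNAs) in their introns. These RNAs are cut out of the spliced intron, and they guide chemical marks on ribosomal RNA: C/D box snoRNAs direct 2′-O-methylation and H/ACA box snoRNAs direct pseudouridylation. A C/D snoRNA has a C box near its start and a D box near its end, where core proteins bind and protect the ends. An H/ACA snoRNA has the letters ACA shortly before its end. Ribosomal protein mRNAs begin with a run of pyrimidines at the transcription start, the 5′ terminal oligopyrimidine tract, through which their translation is regulated.

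The sequences described here are those that one library listed in ribosomal protein genes, selected by gene symbol (Rpl, Rps or Rplp followed by a number, with an optional letter a, l, x or y). The rule used no measured value. It found 1200 distinct small RNA sequences in 79 genes, which is 2.21% of the 54267 sequences and 0.728% of the 10847 genes in the list. RefSeq holds 83 protein-coding mouse genes that fit the rule, and the 4 without a listed sequence were Rps23, Rpl10l, Rpl32l and Rpl39l.

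The library came from DN3 thymocytes, an early stage of T cell development in the thymus, sorted by flow cytometry from Lck-cre mice aged 6 to 7 weeks on a backcrossed C57BL/6 background. Lck-cre expresses Cre recombinase in developing T cells; the labels call the animals controls and state no further allele. RNA of 19 to 30 nt was cut from a gel, and the adaptors could join an RNA only if its first base bore a phosphate and its last base a hydroxyl. The series holds 12 libraries, from 4 cell types as control, Drosha-deficient and Dicer-deficient cells, but a list of sequences in genes was used only for the DN3 control. There was therefore 1 library, with no replicate and no second condition. The list gives each sequence once, with 1 gene, 1 position and 1 genic category, and no read number, so its depth is unknown and every count given here is of different sequences, not of molecules. Shares carry exact (Clopper-Pearson) 95% intervals, which cover counting error only, because overlapping sequences of 1 library share their source. Cell type marker genes mostly fitted the label. Of 13 T lineage genes, 11 had listed sequences, among them Notch1 with 65, Lck with 58, Bcl11b with 30 and Rag1 with 21. Ptcra, however, had 0. Erythroid, myeloid and fibroblast marker genes had 0 sequences and B cell genes had 1 in all. The miRNA list of the same library had a normalised total of 994020. Of the T lineage miRNAs, miR-181a stood at 99099, miR-142 at 33958 and miR-150 at 252. The erythroid miR-451 stood at 5737 and miR-144 at 341, both above miR-150.

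A few sequences show what the list holds. The first set comes from C/D snoRNAs in introns of the small subunit gene Rps12 and the large subunit genes Rpl21 and Rpl3. For each RNA a listed sequence from its first part is followed by one from its last part, with GRCm38 positions and with the C box letters TGATGA or the D box letters CTGA in capitals. They were picked because such end pieces recurred at the C/D snoRNAs of these genes.
Gm23130, Rps12, first part, chr10:23786515-23786541, minus strand: ttgcaTGATGActtgaattgtcggata
Gm23130, Rps12, last part, chr10:23786473-23786502, minus strand: gttcatgggtgagaaacagctagtCTGAca
Gm25091, Rpl21, first part, chr5:146834836-146834864, plus strand: cttaaTGATGAttgtctgtttgattgctt
Gm25091, Rpl21, last part, chr5:146834874-146834901, plus strand: tgaaaaccacatttcaccggctCTGAga
Snord83b, Rpl3, first part, chr15:80078559-80078588, minus strand: gttctgTGATGAggctctggaatgtgcgct
Snord83b, Rpl3, last part, chr15:80078500-80078522, minus strand: ctgttgccttccttCTGAgaaca

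The second set stands for the sequences that lie in neither an intron nor an exon alone. Each runs from the first exon of its gene across the 5′ splice site into the first intron, and the capitals GT are the first bases of that intron. Positions are GRCm38, from the annotated exon end.
Rpl3, chr15:80083314-80083336, minus strand: tggcggcgagatgGTacgtatgg
Rpl7a, chr2:26910820-26910840, plus strand: cgagcaagatgGTgagtgtct
Rpl37a, chr1:72711311-72711334, plus strand: ttccggcgacatgGTgagtgtctt

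The sequences were spread unevenly over the genes. The median was 7 sequences per ribosomal protein gene, against 3 per gene for all other genes of the list. Genes with many sequences were Rpl4, Rpl7a and Rpl17 with 72 each, Rps12 with 68, Rpl3 with 67, Rpl23a with 49, Rps2 with 46, Rpl5 with 36 and Rpl21 with 34. The 10 genes with the most held 623 sequences, 51.9% of the total, and all 10 have an annotated snoRNA in an intron. At the other end, 33 genes had 5 sequences or fewer and 4 genes had 1. By role, the 30 small subunit genes had 452 sequences, the 46 large subunit genes 709, and the 3 stalk genes Rplp0, Rplp1 and Rplp2 had 39.

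**Figure D1:**
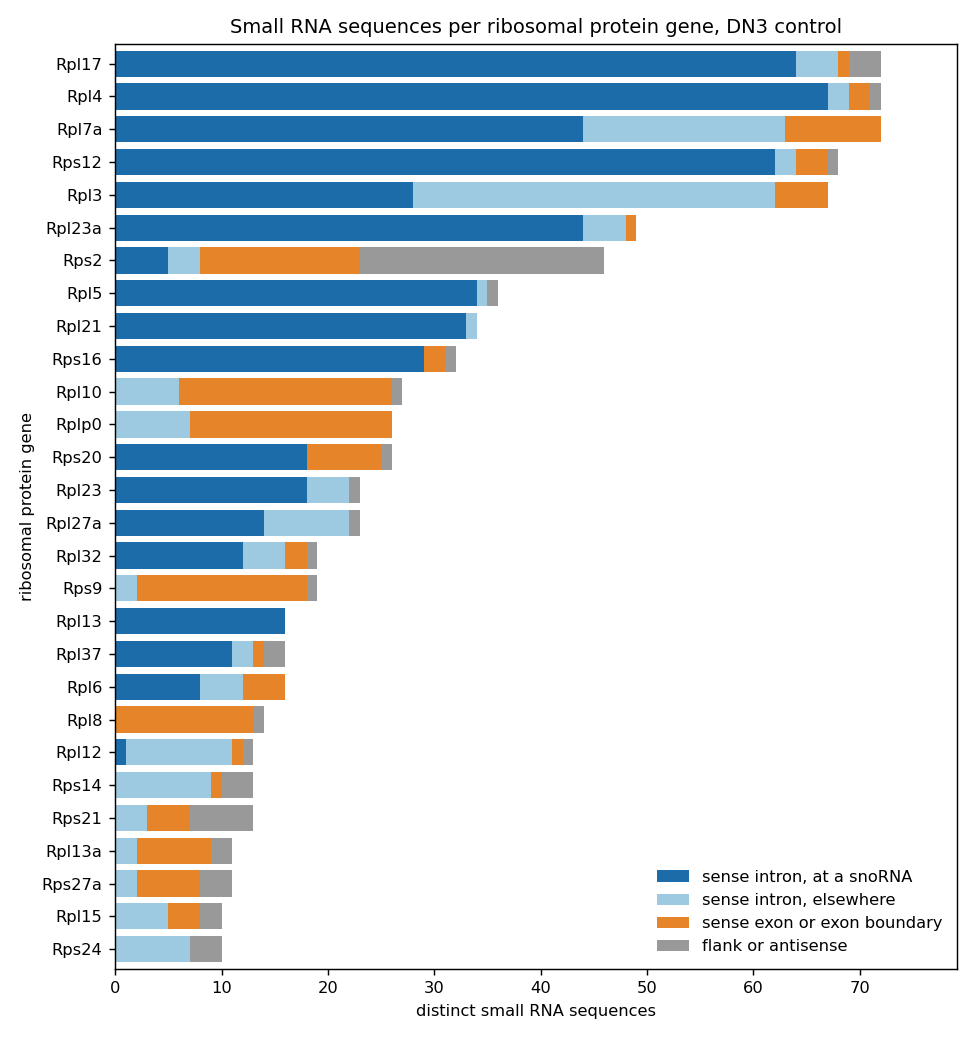
Distinct sequences (x axis) for ribosomal protein genes with at least 10 (y axis; not every such gene is drawn), coloured by where they lie. Intron sequences at a snoRNA fill most of the bars from Rpl17 to Rps16, apart from Rpl3 with 28 of 67 and Rps2 with 5 of 46, whereas Rpl10, Rplp0, Rps9 and Rpl8 consist mostly of sequences at exons or exon boundaries.

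Sequences of ribosomal protein genes lay mostly on the coding strand and mostly in introns. The sense share was 92.2% (95% interval 90.6 to 93.7%), against 72.2% (71.8 to 72.5%) over all other genes. The share in introns was 72.8% (70.2 to 75.3%), against 46.4% (46 to 46.9%). Within introns 97% were sense in ribosomal protein genes (848 of 874) and 67.8% in all other genes. The category the authors call "gene" held 11.5% of the sequences in ribosomal protein genes and 4.92% in all other genes; Rpl10 had the most of it, with 20. The remaining categories were all smaller in ribosomal protein genes. Coding exons held 4.83%, against 13.5%, 5′ UTRs 2.5%, against 13%, 3′ UTRs 0.25% (3 sequences), against 5.29%, 5′ flanks 6.83%, against 14.6%, and 3′ flanks 1.25% (Rpl41 the most, with 4), against 2.2%. The 95% intervals did not overlap in any of these comparisons. No test was made, because the sequences of 1 library are not replicates. The category shares are parts of 1 whole, so a larger intron share lowers the others. Of the 1200 sequences, 622 lay at snoRNAs in introns, against 1758 of 53067 in all other genes. Category shares without these were not compared. Without sequences at a snoRNA the sense share was 86.1% (83 to 88.9%), against 70.9% (70.5 to 71.3%). Mitochondrial ribosomal protein genes, which carry similar names but encode another ribosome, had 208 sequences in 65 genes, of which 70.7% were sense and 35.6% intronic. The sense share was higher in the gene sets most like the ribosomal protein genes: 97.2% (96.3 to 98%) in other snoRNA host genes and 96.9% (95.3 to 98.1%) in other genes with an oligopyrimidine tract, which had 65.1% and 38.2% in introns. Within introns 98.1% and 96% were sense in these sets, next to the 97% of the ribosomal protein genes. These sets are not separate, because Gas5, Eef2, Gnb2l1 and Npm1 are on both lists.

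**Figure D2:**
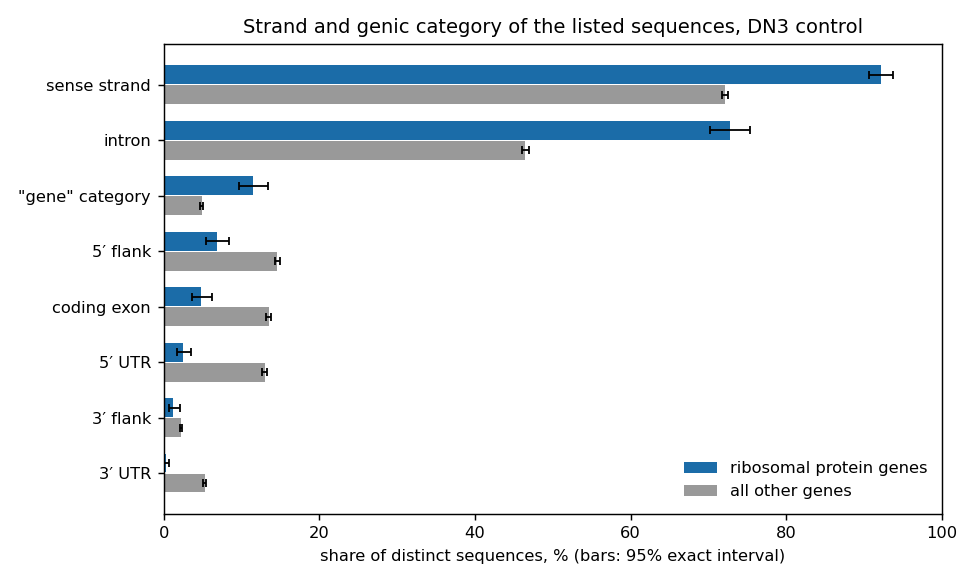
Share of distinct sequences (x axis, %) on the sense strand and in each genic category (y axis), for ribosomal protein genes above and all other genes below in each pair, with exact 95% intervals. The ribosomal protein genes are higher for sense, intron and the "gene" category (92.2%, 72.8% and 11.5%) and lower for the others.

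Most of the intron sequences lay on snoRNAs. Of 848 sense intron sequences 622 matched an annotated snoRNA on the same strand and chromosome, a share of 73.3% (70.2 to 76.3%), and 524 of these lay wholly within it. In all other genes 1758 of 16724 sense intron sequences did so, 10.5% (10.1 to 11%). A list of other genes known to host snoRNAs, such as Gas5, Ncl, Hspa8 and Nop56, had 88.2% (86 to 90.1%), above the ribosomal protein genes. Other genes with a 5′ terminal oligopyrimidine tract, such as Eef1a1, Eef2, Tpt1 and Npm1, several of which host snoRNAs too, had 82.1% (76.6 to 86.7%). Mitochondrial ribosomal protein genes had 0 of 51, which allows a share of up to 5.88% when 3 counts are taken as the floor and up to 6.98% by the exact interval. No sequence at a snoRNA was found whole in more than 1 of the 1558 snoRNA transcripts searched, and in each of the 20 host genes with a sequence wholly inside a snoRNA the matches kept 1 constant distance between the position in the list and in GRCm38.

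GENCODE places 55 snoRNAs in introns of 29 of the 79 genes, and 40 of the 55, in 23 genes, had at least 1 sequence. The 29 host genes had 884 sequences with a median of 23 per gene, and the 50 other ribosomal protein genes had 316 with a median of 5. Without the sequences at snoRNAs, the median was 5 in host genes and 5 in the others. By class, 26 of 35 C/D snoRNAs had sequences, with a median of 13 over all 35, and 12 of 16 H/ACA snoRNAs, with a median of 2.5 over all 16. The 4 snoRNAs that neither symbol nor box letters placed in a class included AF357399 in Rps16, with 29 sequences, and Gm24016 in Rps20, with 18.

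Among small subunit genes, Rps12 had 33 on Gm23130 and 29 on Snord100, both C/D, but 0 on the H/ACA RNA Snora33 in the same gene. Rps2 had 5 on Snora64 and Rps13 had 3 on Snord14a.

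Among large subunit genes, Rpl4, whose protein lines the exit tunnel of the ribosome, carried 5 C/D snoRNAs with between 11 and 18 sequences each. Rpl17, also at the tunnel, had 36 on Gm26202, 22 on Gm23301 and 6 on Snord58b. Rpl7a had 19, 13 and 12 on Gm23969, Gm22879 and Gm24134. Rpl23a, whose protein sits at the tunnel exit, had 19 on Snord4a, 15 on Snord42b and 10 on Snord42a. Single snoRNAs carried most of the sequences of Rpl21 (32 on Gm25091), Rpl13 (16 of 16 on Snord68), Rpl37 (11 on Snord72) and Rpl23 (18 on Snora21). In Rpl5, which binds ribosomal RNA together with Rpl11, the C/D RNA Snord21 had 21 sequences and the H/ACA RNAs Gm22270 and Gm26387 had 9 and 4. Other H/ACA RNAs with sequences included Snora3 in Rpl27a (14), Snora7a in Rpl32 (12), Gm26205 in Rpl6 (8), Gm24523 in Rpl30 (2), Snora52 in Rplp2 (2), Snora65 in Rpl12 (1) and Gm23202 in Rpl21 (1).

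The 15 snoRNAs without a sequence were concentrated in a few genes. All 4 C/D snoRNAs of Rpl13a (Snord32a, Snord33, Snord34 and Snord35a) had 0, although Rpl13a had 11 sequences elsewhere. Both in Rps3 (Snord15a and Snord15b) and both in Rps3a (Snord73a and Rnu73b) had 0 as well. Others were Snora33 in Rps12, Snora69 in Rpl39, Snora70 in Rpl10, Gm24888 in Rpl27a, Gm27326 in Rpl23 and Gm22077 in Rpl3. With no read depth, a snoRNA without a listed sequence is one from which none was listed, and no limit on its level can be given.

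Sequences overlapping on 1 strand were joined into clusters of at least 3. The ribosomal protein genes had 60 sense clusters, in 22 genes (27.8% of the 79), with a median of 9 sequences. All other genes had 466, in 3.13% of the genes. The clusters took in 657 of the 848 sense intron sequences (77.5%), against 17.9% in all other genes. Of the 60 clusters, 54 (90%) lay at a snoRNA, against 161 of 466 (34.5%). The 26 antisense intron sequences formed 0 clusters. Of 34 snoRNAs with a cluster, 19 had 2 or more separate clusters. In Rpl4, Snord16a had 11 sequences in one and 7 in the other. Other snoRNAs had a single cluster, such as Gm25091 with 32 sequences, Snord100 with 29 and Snora21 with 18.

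The remaining 6 clusters matched no RNA that GENCODE types as a snoRNA. The clusters of 15 and 13 sequences in Rpl3, at chr15:80082851-80082887 and chr15:80082893-80082920 (GRCm38), lay in Snord43, a C/D RNA in RefSeq that GENCODE types as a miRNA. All 15 of the first held CTGA and all 13 of the second held TGATGA. The cluster of 17 in Rpl7a, at chr2:26912848-26912914, began on the first base of a RefSeq snoRNA locus that spans chr2:26912848-26912915. All 17 also lay in the first exon of an Rpl7a transcript that GENCODE types as processed; 0 of them held TGATGA and 2 held CTGA. With these added, 57 of 60 clusters (95%) and 667 of 848 sense intron sequences (78.7%) lay at a snoRNA. The 4 sequences of the Rps24 cluster lay in the first exon of an annotated Rps24 transcript. The clusters in Rpl11 (4 sequences) and Rps29 (3 sequences) matched no annotated transcript of their strand and chromosome. The Snord43 sequences are shown because they hold the same box letters as those of the C/D snoRNAs shown first. In the last part the capitals mark an inner CTGA. The CTGA placed as in the other last parts is in small letters, 2 bases before the end.
Snord43, Rpl3, first part, minus strand: cacaaaTGATGAaccttttgacgggcg
Snord43, Rpl3, last part, minus strand: aactctgtgCTGAatgtcaagttctgatt

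Within C/D snoRNAs the sequences came from the ends. Of 496 sequences at 26 C/D snoRNAs, 49.2% (44.7 to 53.7%) began within 5 bases of the annotated first base, 36.1% (31.9 to 40.5%) ended within 5 bases of the last base, and 14.7% did neither. At 60 C/D snoRNAs in other genes (1046 sense intron sequences), 34.3% lay at the first base, 29.3% at the last base and 36.3% at neither. Of the 26 C/D snoRNAs, all 26 had sequences at the 5′ end and 24 had them at both ends. TGATGA occurred in 40.7% of the C/D sequences (202 of 496), against 2.31% of the 563 ribosomal protein gene sequences not at a GENCODE snoRNA. The 563 still include the 45 sequences at a snoRNA by RefSeq alone. All 13 of the 563 that held TGATGA were those of Snord43. CTGA, searched on the listed strand alone, occurred in 46.8%, against 11.4% of the 563. Of the 64 that make up the 11.4%, 15 lay in Snord43 and 2 in the Rpl7a cluster. The last 3 letters of CTGA can be the first 3 of TGATGA. RNAs without a Snord symbol were called C/D only if they held TGATG near the start and CTGA near the end. For these RNAs, among them Gm23130 and Gm25091, the presence of the letters near the ends was set largely by the class rule. Of 186 C/D sequences at the 5′ end that held TGATGA, 92.5% began 4 to 6 bases before it, and the most common distance was 6 bases (93 sequences). The same distance was the most common in other genes, with 81% at 4 to 6 bases. All 179 sequences at the 3′ end held CTGA, and 57% of them stopped 2 or 3 bases after it, as the last parts of Gm25091 and Gm23130 do, and 36.3% stopped 4 to 6 bases after it, counting from the last CTGA. In other genes these shares were 45.6% and 43%.

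Sequences at one snoRNA often shared an end. Among the 622, 70.3% had the same first base as another and 57.7% the same last base. Among the 563 not at a GENCODE snoRNA, which include the 45 at a snoRNA by RefSeq alone, these shares were 21% and 17.4%. The 622 lay on 40 snoRNAs, whereas the 563 were spread over introns, exons and flanks. Closer packing by itself makes a shared end more likely, and its part in the difference was not tested. At Snord83b in Rpl3, 13 of 28 sequences began on the same base, and the lengths of all 28 ran from 17 to 31 nt. At Gm22455 in Rpl4, 10 of 13 sequences ended 2 bases before the annotated end, whereas no first base was shared by more than 2.

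**Figure D3:**
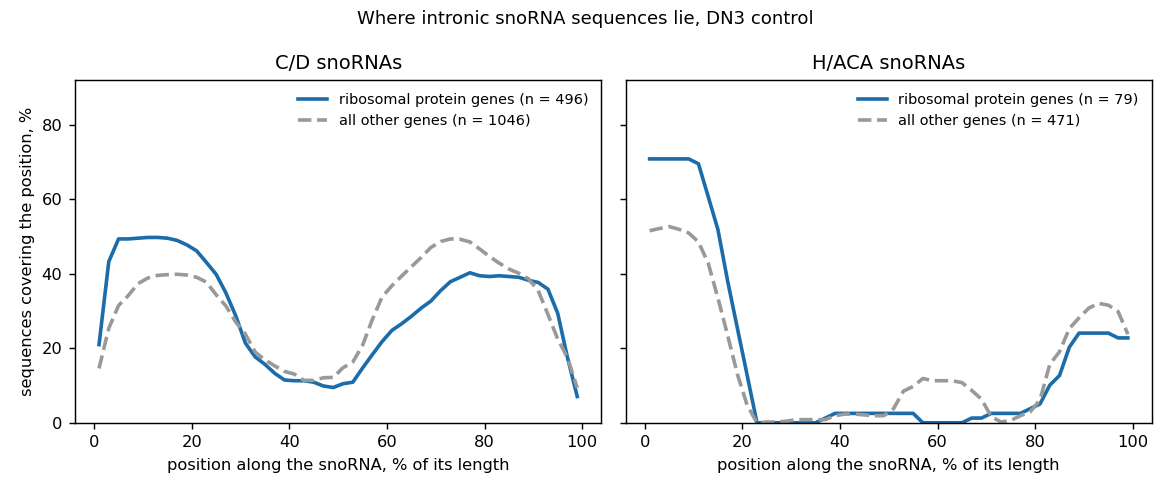
Share of sense intron sequences (y axis, %) that cover each position along C/D snoRNAs (left) and H/ACA snoRNAs (right), with position as % of the RNA's length; the solid line is ribosomal protein genes and the dashed line all other genes. Both classes are covered at the ends and little in the middle, and H/ACA sequences of ribosomal protein genes lie mostly at the start (69.6% within 5 bases of it).

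H/ACA snoRNAs gave fewer sequences and a stronger lean to the first base. Of 79 sequences at 12 H/ACA snoRNAs, 69.6% (58.2 to 79.5%) began within 5 bases of the start and 24.1% (15.1 to 35%) ended within 5 bases of the end. At 66 H/ACA snoRNAs in other genes the shares were 52.4% (47.8 to 57%) and 31.6%. Snora21 in Rpl23 gave 18 of the 55 start sequences and 0 at its end; 9 of the 18 began 2 bases before the annotated start. All 9 sequences at Gm22270 in Rpl5 began on its first base. The start sequences had a median length of 24 nt and the end sequences 20 nt. At Gm26205 in Rpl6 the order was the other way round, with 6 of 8 sequences ending on its last base. One sequence of each kind shows this, with ACA in capitals in the end piece.
Snora21, Rpl23, chromosome 11, minus strand, first part: gtccccttttaaaagcactcagtgagcctt
Gm26205, Rpl6, chromosome 5, plus strand, last part: ctggcactgaagtgggtcgcACAgaa

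Outside introns, most sense sequences crossed the first 5′ splice site, the boundary at which the first exon ends and the first intron begins. Of 225 sense sequences in coding exons, UTRs and the "gene" category, 135 (60%, 53.3 to 66.5%) joined at least 4 bases of an exon end to GT at the start of the intron. In all other genes 906 of 17045 did so, 5.32% (4.98 to 5.66%). Among genes with any such sense sequence, 40 of 60 ribosomal protein genes (66.7%, 53.3 to 78.3%) and 11.5% of 6180 other genes had at least 1. Of the 135 sequences, 130 (96.3%) crossed the splice site of the first exon. Another 4 (1.78%) crossed a 3′ splice site, 48 (21.3%) lay wholly inside an exon, against 86.6% in all other genes, and 38 fitted none of these. Of those 38, 28 began at, or within 3 bases of, a GT that was followed by A or G. As a check of the rule, it called 0 of 848 sense intron sequences of these genes and 84 of 16485 of all other genes.

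Rplp0, the stalk base protein, had 18 such sequences, the most of any of the genes and the most sequences of any gene without a snoRNA (26 in all). They held 7 to 25 bases of the exon and 4 to 17 bases of the intron. Rpl10, a protein that joins the large subunit late in its assembly, had 17, of which 16 were at exon 1. Rps9 had 13 and Rps2 had 11, all at exon 1. Rpl3 and Rpl7a had 5 each, and Rpl6, Rps21 and Rps27a, which encodes a fusion with ubiquitin, had 4 each. The other genes had 1 to 5. Across all 135 the median was 13 exon bases, 9 intron bases and a total length of 22 nt. These sequences were counted for spanning the splice site, so none of them could begin or end at it. First-exon sequences came from 39 genes, and in each of the 23 genes with 2 or more of them all placed the splice site at the same position of the list. Their first bases lay 12 to 276 bases from the annotated transcript start, with a median of 57. First exons were short in these genes, with a median of 88.5 bases over the 60 measured. The median was 226 over the 6113 first exons of other genes. The transcripts of ribosomal protein genes also share much sequence with other genes, and the list gives each sequence 1 position. The part of either in the difference in splice site shares between the gene sets was not tested.

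**Figure D4:**
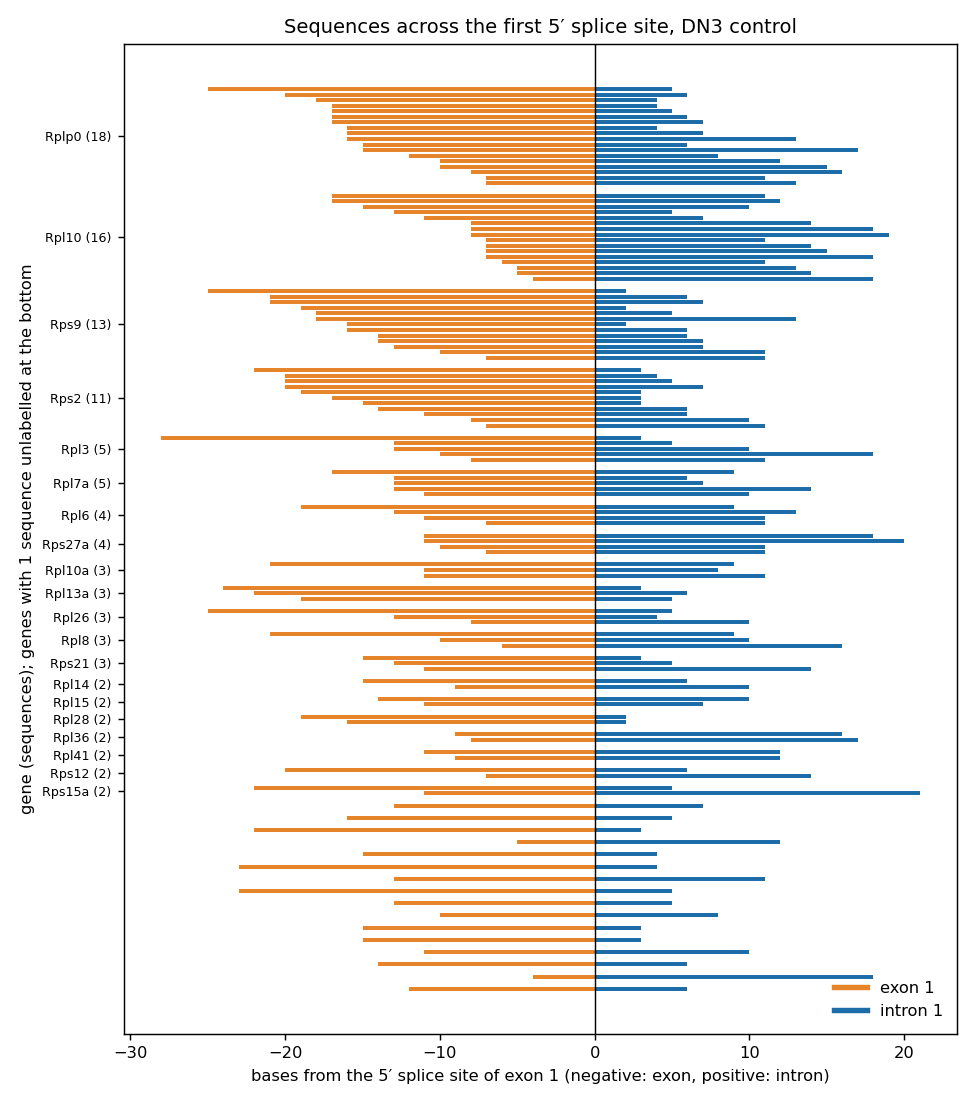
Sequences across the first 5′ splice site, each as a line (not every gene is drawn), grouped by gene (y axis), with position in bases from the splice site (x axis; exon bases to the left, intron bases to the right). Rplp0 (18), Rpl10 (16), Rps9 (13) and Rps2 (11) have the most, and the sequences begin and end at many different positions on both sides.

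Little of the mature mRNA was listed. Rpl8 had the most coding exon sequences, with 9, and Rps20 the most in a 5′ UTR, with 7. The 3 sequences in 3′ UTRs came from Rpl8, Rpl13a and Rpl15. The transcripts of these genes share much sequence with other genes: in the median gene, 51.4% of the 20-letter words of its transcripts also occurred in a transcript of another GENCODE gene, and the share was over 50% in 42 of the 79. For mitochondrial ribosomal protein genes the median was 4.41%. None of the 48 sequences inside an exon was found in a transcript of another gene (0 of 48). The list gives no sequence more than 1 position, so sequences that fit several genes may never have been listed. The 0 of 48 therefore cannot show the part of shared sequence in the low exon counts, which was not tested.

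Some exonic sequences began with a run of pyrimidines. Of 30 sense sequences in 5′ UTRs, 8 (26.7%, 12.3 to 45.9%) began with C or T followed by 4 pyrimidines, against 165 of 6196 (2.66%, 2.28 to 3.09%) in all other genes. Over sense sequences in coding exons, 5′ UTRs and the "gene" category together the share was 11.3% (25 of 222, 7.42 to 16.2%), against 2.57%. The runs were counted wherever a sequence began and were not placed at a transcript start. The other oligopyrimidine genes had 2.2% in 5′ UTRs (7 of 318). Of the 655 sequences of that set, 435 lay at a snoRNA, but only 197 of these in sense introns. Its other categories therefore hold snoRNA pieces too. How many of the 318 were such pieces was not counted, so the 2.2% is not a share of mRNA leaders alone.

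In 5′ flanks the antisense strand was the more common. Of 82 flank sequences 59 were antisense (72%, 60.9 to 81.3%), against 56.6% of those in all other genes. Rps2 had 23 of the 59, Rplp1 had 8 and Rps21 had 5. Of the 23 of Rps2, 15 matched Snora78, an H/ACA snoRNA on the opposite strand upstream of Rps2 at chr17:24719676-24719803; 13 of them began 5 bases before its annotated start. Without these 15, 44 of 67 flank sequences were antisense (65.7%, 53.1 to 76.8%). Where the RefSeq promoter table gave a window of 250 bases before and 50 after the gene start, which it did for 59 genes, 57 sense and 21 antisense sequences lay in it. The sense sequences, from 18 genes, had a median first base 11 bases after the start. Most of them were listed in exons, introns or the "gene" category, not in a 5′ flank, so the strands are not compared over the same categories. This gene start need not be the annotated transcript start used above for the splice site sequences. The antisense sequences, from 12 genes, had a median first base at position -164, and 20 of the 21 began upstream. All 21 were listed in a 5′ flank, so an upstream place was largely set by that category. The window, with only 50 bases after the start, also limits how far downstream a first base could lie on either strand.

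The length of the sequences followed their place. Those at intronic snoRNAs had a median of 23 nt in ribosomal protein genes and 23 nt in other genes, with 26.2% (22.8 to 29.8%) and 27.4% (25.3 to 29.6%) at 27 nt or longer. Sequences elsewhere had medians of 22 and 21 nt, with 18.7% (15.6 to 22.1%) and 13.6% (13.3 to 13.9%) at 27 nt or longer. Those elsewhere still include snoRNA sequences listed outside sense introns or known from RefSeq alone. The most common length elsewhere was 18 nt, just under the gel range, at 16.1% in ribosomal protein genes and 16.6% in all other genes, whereas 18 nt made up 8.04% and 7.85% of the sequences at snoRNAs. Over all 1200 sequences the median was 22 nt, against 21 nt; 219 were shorter than 19 nt and 38 longer than 30 nt. T was the first base of 30.8% (28.2 to 33.5%), against 20.5% in all other genes; it was 32.9% (30.6 to 35.3%) in other snoRNA host genes and 27.2% (23.8 to 30.8%) in other oligopyrimidine genes. None of the 1200 was among the 1067 entries of the miRNA list of the same library (0 of 1200). Of all 54267 sequences in genes, 0 were in the miRNA list, so this is not particular to ribosomal protein genes.

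**Figure D5:**
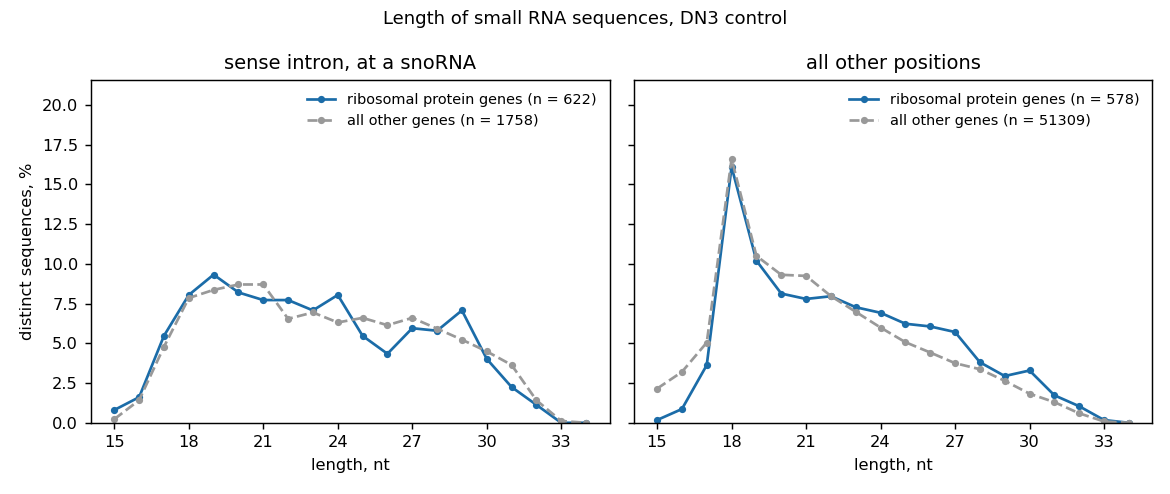
Share of distinct sequences (y axis, %) by length in nt (x axis), for sense intron sequences at a snoRNA (left) and all others (right); the solid line is ribosomal protein genes and the dashed line all other genes. Both lines peak at 18 nt on the right (16.1% and 16.6%), and neither does on the left. The right panel still holds snoRNA sequences listed outside sense introns or known from RefSeq alone.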

How the data were processed

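The authors deposited a list of distinct small RNA sequences with gene, strand, position, orientation and genic category for the DN3 control library. Per the labels, adaptors were clipped before mapping. The aligner and genome build are not given in the sources used here; positions in the list differ from GRCm38 by a constant within each of the 20 genes where this could be measured. The deposited miRNA values of the library, a normalized mapping count per the file headers, were read as scores. The members and comparison lists were chosen with earlier results of these data known. Named genes were the 10 with the most sequences, every gene with an intron cluster, and the leading gene of each category; some are not reported here.

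Sequences were matched to GENCODE M21 snoRNA transcripts on the same chromosome and strand, whole or with at least 12 bases at an end. An RNA without a Snord or Snora symbol was classed by its box letters and by a length limit of 110 bases. Splice sites came from GENCODE transcripts linked to each RefSeq accession. Exact intervals used scipy, and no test was possible with 1 library. Matching and clustering were tested on simulated fragments. Alternatives changed the gene rule, cluster rule, overlap and annotation.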

Additional observations from a re-analysis of the deposited data

How the results depend on the processing

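No paired analysis was possible because 1 library was used. The number of sequences (1187 to 1242), the shares in introns, on the sense strand and at 27 nt or longer, and the cluster counts stayed within their intervals or within 1.5 times under every alternative run for them; clusters ranged from 48 to 87 and those at a snoRNA from 40 to 60. Counting rows, or only sequences with 1 gene and 1 position, could change no share, because each sequence is listed once with 1 position. The alternative that could change the intron, sense and 27 nt shares left out the gene with the most sequences. It gave 70.4%, 91.6% and 21.9%. The share of sense intron sequences at a snoRNA was 69.6% without the gene with the most sequences and 78.7% with RefSeq snoRNAs added, against 73.3%. The share across a 5′ splice site was 51.1% when 8 exon bases were asked for, against 60%; the stricter rule drops sequences with 4 to 7 exon bases. The settings of 8 exon bases, without Rplp0 (56.8%), 15 bases of overlap (73%) and RefSeq snoRNAs were chosen after seeing the data. The unknown depth means that a gene's count of sequences cannot be read as its level.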

Other observations

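The list of ribosomal protein gene sequences is not in one order. In each of the 14 blocks of at least 20 sequences of 1 gene and 1 category, the block ended in an alphabetical run that held between 26.5% and 85.0% of it. For the introns of Rpl17 that run held 47 of 71 sequences.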
